A study of Mus musculus with 16 samples.

Results

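The difference between striatum and cortex was compared between a pair of mouse reporter lines for parvalbumin interneurons, to see for which genes the regional difference depended on the line. For each gene the contrast was striatum minus cortex in the PVCre line, minus striatum minus cortex in the PVwt line, and it is called the interaction below. All 16 arrays entered it, 4 from each region of each line. The array held 65956 transcript clusters, of which 31080 carried a single gene, standing for 30627 genes. The 20418 genes left after the 33.3% with the lowest mean level were set aside were tested. Each gene that passed the test was then sorted by which 1 of the 4 groups stood apart from the other 3.

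PVwt is the line labelled PV-tdTomato/+, which carries the red fluorescent reporter tdTomato under parvalbumin control and no Cre recombinase. PVCre is the line labelled PVCre/+; tdTomato/+, in which Cre driven by the parvalbumin gene switches a tdTomato reporter on. Such a switch is permanent, so any cell that once made Cre stays red. The 4 groups were PVwt_ST and PVCre_ST from dorsal striatum, and PVwt_CTX and PVCre_CTX from motor and somatosensory cortex. All mice were labelled C57BL/6J, male and 30 days old, and no group was treated. Red cells were sorted by flow cytometry, 2000 for each array from 2 to 4 pooled mice, and 5 ng of RNA was amplified. The labels do not say whether pools of 1 group came from separate mice, so the p-values measure only the spread between these pools, which may be partly technical. The labels name no batch, so the line and a batch that went with it cannot be told apart. An array quality value that split by line is given below.

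Parvalbumin interneurons are fast-spiking inhibitory cells that arise in the medial ganglionic eminence. Other cortical inhibitory cells, among them neurogliaform, Vip and Cck cells, come largely from the caudal ganglionic eminence or the preoptic area and as a rule lack parvalbumin. The striatum holds further interneuron classes that the cortex lacks or has few of, including Th cells and cholinergic cells. Reporter lines differ in how closely their fluorescence follows the gene that drives it, so the mix of cells in a sort may differ with the line and, within a line, with the region.

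Levels are log2 values as deposited, where a step of 1 is a doubling. The 23 antigenomic background probe sets averaged 2.95 to 6.1, so levels near 6 are close to background. Control separation tells how far positive controls lay above negative ones on an array. It was 4.16 to 4.85 in PVwt and 3.08 to 3.93 in PVCre, so the lines did not overlap. Its interaction was small, at -0.10. Whether the lower separation bears on genes near background in PVCre was not tested. Parvalbumin itself (Pvalb) measured 11.38, 11.86, 7.29 and 8.40 in PVwt_ST, in order of replicates 1 to 4. It measured 12.17, 11.13, 6.96 and 7.19 in PVwt_CTX. In PVCre_ST it was 10.20, 11.23, 11.87 and 11.65. In PVCre_CTX it was 10.56, 7.93, 12.48 and 6.69. Pvalb was therefore high on every array of PVCre_ST only, and low on replicates 3 and 4 of both PVwt groups and on replicates 2 and 4 of PVCre_CTX. The GABA-synthesising enzymes Gad1 and Gad2 were lowest on those same PVCre_CTX replicates, at 8.88 and 7.40 for Gad1 and 6.79 and 6.56 for Gad2. None of Pvalb, Gad1 and Gad2 was called for the interaction (limma adjusted p = 0.975, 0.801 and 0.484). Mean levels of the oligodendrocyte marker list were high on all arrays, from 12.1 to 14.9. Xist, the RNA of the inactive X chromosome, stood between 13.40 and 16.01 on 8 arrays and between 5.71 and 6.56 on the other 8, although all mice were labelled male. The split was uneven between the lines. In PVwt, Xist was high only on replicate 3 of each region, and in PVCre it was low only on replicate 2 of each region. In bulk RNA, fewer cells of a type and less RNA per cell cannot be told apart.

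The interaction was called for 40 of 20418 genes, 0.196% of those tested, at an adjusted p under 0.05 (limma, Benjamini-Hochberg over all genes tested). It was positive in 30 genes (0.147% of genes tested), where striatum minus cortex was higher in PVCre. It was negative in 10 (0.049%), where striatum minus cortex was higher in PVwt. The absolute interaction of called genes ran from 1.04 to 6.80 on the log2 scale, and the median absolute interaction over all genes tested was 0.20. Of the 19 genes with an absolute interaction above 4, 10 were called. The count was 127 (70 positive, 57 negative) with the replicate numbers as a block in both lines, and 111 (70 positive, 41 negative) with the block in PVwt alone, where same-numbered arrays of the 2 regions deviated together. Of the 40 genes, 38 were called under each block. With Xist and Y-linked levels as covariates, 19 genes were called, all among the 40. With control separation as a covariate, 55 genes were called, 39 of the 40 among them. The count also depended on single arrays. It was 69 without PVwt_CTX replicate 3. It was 23 without either PVwt_ST replicate 1 or 4, 22 and 24 without PVwt_CTX replicate 1 or 2, 23 and 25 without PVCre_ST replicate 2 or 4, and 24, 22 and 21 without PVCre_CTX replicate 1, 2 or 4. Of the 40 genes, 19 were called in all 16 fits that left out 1 array, and 13 in fewer than 5 of them.

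**Figure D1:**
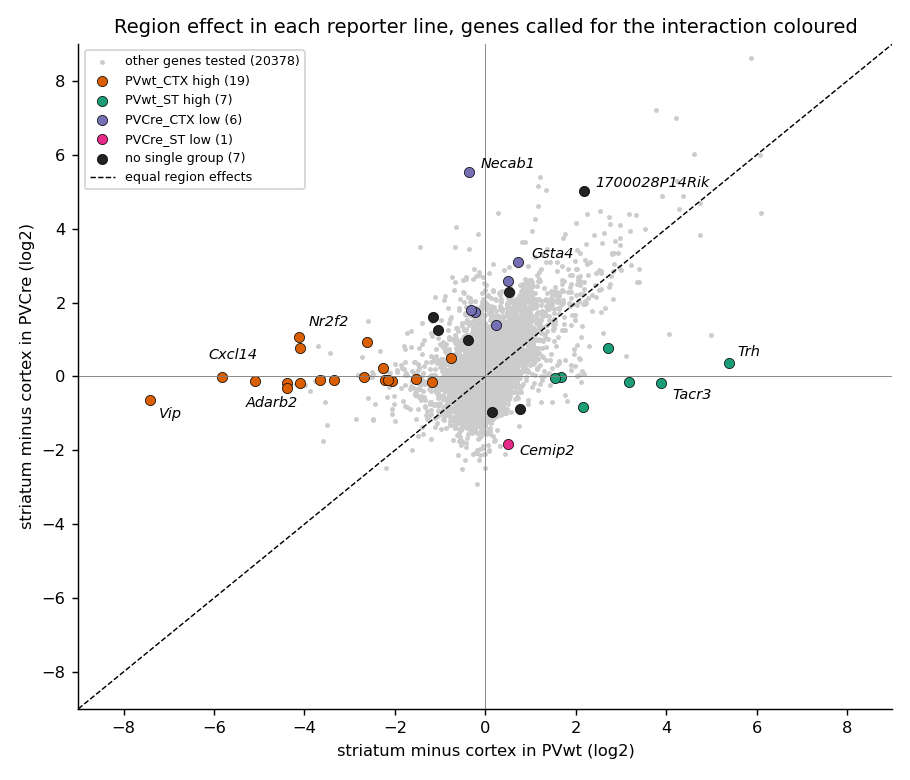
Each point is a gene. The horizontal axis is striatum minus cortex in PVwt and the vertical axis striatum minus cortex in PVCre, both in log2. Coloured points are the 40 genes called for the interaction, by the group that stood apart, and the dashed line marks equal region effects. The 19 PVwt_CTX high genes lie to the left with PVCre effects between -0.63 and 1.07, and the 7 PVwt_ST high genes lie to the right with PVCre effects between -0.83 and 0.78.

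A group was taken to stand apart where the gap between its mean and the nearest other group mean exceeded the range of the other 3 means. This sorting uses the values of the interaction itself and is a description with no test. Of the 40 called genes, 19 had PVwt_CTX apart and high, 7 had PVwt_ST apart and high, 6 had PVCre_CTX apart and low, 1 had PVCre_ST apart and low, and 7 had no single group apart. In 32 of the 33 genes sorted to a group, no array of that group overlapped any of the other 12. The exception was the carbonic anhydrase gene Car4, whose PVCre_ST replicate 1, at 9.63, lay among the PVwt_CTX arrays of 9.09 to 9.79. Of all 5570 tested genes that the same rule sorted to a group, 848 (15.2%) had no overlap, among them 100 of 486 PVwt_CTX high and 75 of 566 PVwt_ST high genes. Since the call and the sorting use the same values, nothing is read from this gap. Over all genes tested the same sorting gave other proportions, with 486 genes PVwt_CTX high, 566 PVwt_ST high, 1310 PVCre_CTX low and 1094 PVCre_ST low. A further 766 were PVCre_CTX high (3.75%), 625 PVCre_ST high (3.06%), 442 PVwt_CTX low and 281 PVwt_ST low. No called gene had PVCre_ST or PVCre_CTX apart and high.

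The sequences upstream of 3 called genes are shown because each of these genes was near background in both PVCre groups and far above it in 1 PVwt group. They are from RefSeq on build GRCm38.p6, run 5′ to 3′ on the gene's strand, and end at the base before the gene's outermost start. Vip (chr10:5639073-5639192, plus strand), Tacr3 (chr3:134828887-134829006, plus strand) and Trh (chr6:92244651-92244770, minus strand) have 120 bases each. Capitals mark the motifs, which were searched on both strands and do not overlap in these windows. The core of the cAMP response element, bound by CREB proteins, was searched as TGACGT. The TATA box, which places the start of transcription, was searched as TATAAA. The core of homeodomain protein sites was searched as TAATTA. The half-site bound by nuclear receptors was searched as AGGTCA.
Vip: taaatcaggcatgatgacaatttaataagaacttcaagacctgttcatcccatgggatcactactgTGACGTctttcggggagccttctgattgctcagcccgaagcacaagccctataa
Tacr3: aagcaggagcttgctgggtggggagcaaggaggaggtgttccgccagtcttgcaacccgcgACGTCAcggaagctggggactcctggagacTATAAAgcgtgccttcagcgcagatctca
Trh: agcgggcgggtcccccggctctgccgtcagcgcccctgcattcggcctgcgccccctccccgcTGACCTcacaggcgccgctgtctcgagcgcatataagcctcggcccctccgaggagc
Promoters of 250 bases were listed for 14 of the 19 PVwt_CTX high genes and 5 of the 7 PVwt_ST high genes. The TGACGT core was found in 1 of the 14 (Vip) and 1 of the 5 (Tacr3), and in 6.56% of all 27025 promoters of that length. TATAAA was found in 4 of the 14 (Ddr2, Thbs2, Tnnt1 and Vip) and 1 of the 5 (Tacr3), against 13% of all. The TATAAA of Vip crosses the gene's outermost start and is not shown above. TAATTA was found in 1 of the 14 (Adarb2) and 0 of the 5, against 4.9% of all. AGGTCA was found in 1 of the 14 (Cxcl14) and 1 of the 5 (Trh), against 13.8% of all.

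Among the 19 PVwt_CTX high genes the largest interaction was that of Vip, the gene for vasoactive intestinal peptide, which marks a class of caudal interneurons. It measured 14.82, 15.31, 9.55 and 12.54 in PVwt_CTX. It stood between 5.03 and 6.44 in PVwt_ST, between 4.77 and 5.84 in PVCre_ST and between 5.40 and 6.12 in PVCre_CTX. All PVwt_CTX arrays lay above all other arrays, and replicate 3 was the lowest of them. Striatum minus cortex was -7.43 ± 0.90 (SE) in PVwt and -0.63 ± 0.90 in PVCre, an interaction of 6.80 ± 1.27 (limma adjusted p = 0.049), with 4 arrays in each group. The call held in 1 of the 16 fits without 1 array, the one without PVwt_CTX replicate 3 (limma adjusted p = 0.00064).

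Cxcl14, a chemokine gene, measured 15.66, 15.29, 12.77 and 12.71 in PVwt_CTX. It was 7.96 to 8.84 in PVwt_ST, 6.09 to 6.94 in PVCre_ST and 6.14 to 7.03 in PVCre_CTX. The other 3 groups were thus all lower, with PVwt_ST somewhat above both PVCre groups. The interaction was 5.79 ± 0.79 (SE, limma adjusted p = 0.0076). Nr2f2, the transcription factor COUP-TFII of caudally derived interneurons, measured 11.17, 11.38, 8.0 and 8.49 in PVwt_CTX and at most 7.19 on any other array. Its region effect was -4.11 ± 0.62 in PVwt and 1.07 ± 0.62 in PVCre, so the arrays of the 2 regions were ordered oppositely in the 2 lines. Adarb2, a relative of the RNA-editing enzymes that marks the caudal lineage, measured 13.88, 14.13, 11.09 and 11.70 in PVwt_CTX. It was 6.87 to 8.29 in PVwt_ST and did not exceed 5.90 in either PVCre group. Its interaction was 4.96 ± 0.78 (limma adjusted p = 0.016).

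Reln, the gene for the secreted protein reelin, measured 12.22, 11.88, 9.82 and 10.01 in PVwt_CTX and 5.55 to 6.76 elsewhere. Ndnf, a secreted factor of neurogliaform cells in the outermost cortical layer, measured 10.12, 9.71, 8.52 and 9.48 there and 5.60 to 6.35 elsewhere. It had the smallest p of the 19, with an interaction of 3.56 ± 0.38 (limma adjusted p = 0.0018). Lamp5, a lysosome-associated membrane protein gene, measured 9.48, 8.74, 9.68 and 9.34 in PVwt_CTX. In PVwt_ST it was 6.62 to 7.45, above both PVCre groups. Slc17a8, which encodes the vesicular glutamate transporter VGLUT3, measured 9.38, 8.67, 7.26 and 7.44 in PVwt_CTX and stayed between 5.31 and 5.91 elsewhere. In the genes Reln, Ndnf, Lamp5 and Slc17a8, no PVwt_CTX array overlapped another group.

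**Figure D2:**
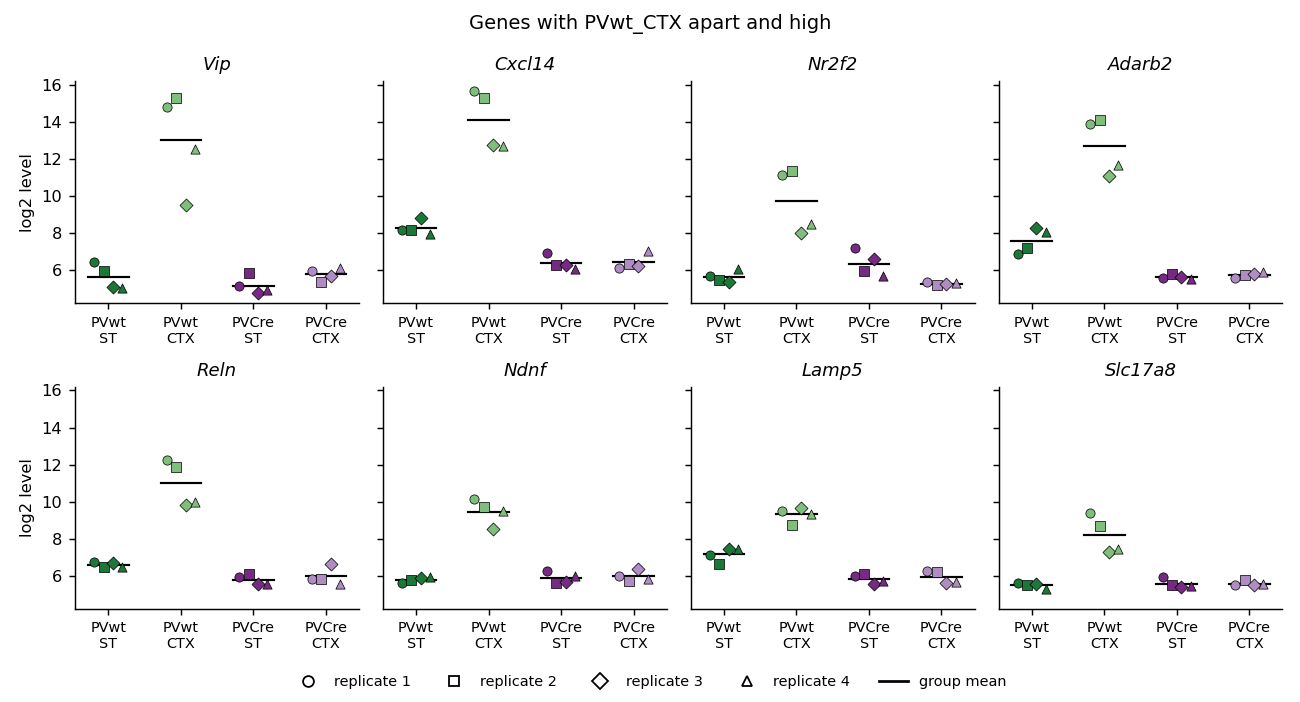
Log2 level on each array for 8 of the 19 PVwt_CTX high genes, by group. Symbols mark the replicates and bars the group means. The PVwt_CTX arrays lie above all other arrays in each gene, and for Vip they spread from 9.55 to 15.31.

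Sema3c, a secreted guidance cue, had an interaction of 4.86 ± 0.87 (SE), and its PVwt_CTX mean was 11.78 against 7.68, 6.46 and 5.69 in PVwt_ST, PVCre_ST and PVCre_CTX. Rxfp1, a receptor for relaxin peptides, had a mean of 9.63 in PVwt_CTX and 4.66 to 5.24 in the other groups. Rxfp1 and, among the PVwt_ST high genes, Mc3r were the 2 called genes whose other 3 means were all under the filter level of 5.525. Both were thus tested only because 1 group was high. The filter acted on the mean over all arrays, so these 2 are a minimum. Trh, at 5.20 in PVwt_CTX, 5.58 in PVCre_ST and 5.21 in PVCre_CTX, also passed it only through PVwt_ST. Pde11a, which breaks down cyclic nucleotides, had a mean of 9.10 in PVwt_CTX and 5.13 to 5.75 elsewhere. Tnfaip8l3, a lipid transfer protein gene, had a mean of 12.02 in PVwt_CTX, 7.92 in PVwt_ST, and 5.47 and 5.65 in PVCre. The smallest interactions were those of Thbs2, a thrombospondin gene, at 1.04 ± 0.16 and of the collagen receptor Ddr2 at 1.27 ± 0.17. Atp6ap1l, Bmp3, Ccn3 and Tnnt1 lay between 1.48 and 2.51. In 12 of the 19 genes both PVCre means were within the range of the background probe sets, and in 8 all 3 other means were.

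Within PVwt_CTX, replicates 1 and 2 were both above replicates 3 and 4 in 13 of the 19 genes, and the median gap between those pairs was 1.34. The same split appeared in other marker lists. The mean level of the list of parvalbumin interneuron markers was 10.19 to 10.58 on PVwt_CTX replicates 1 and 2 and 8.78 to 8.96 on replicates 3 and 4. That of the oligodendrocyte list was 12.48 to 12.55 on replicates 1 and 2 and 14.31 to 14.69 on replicates 3 and 4. With the oligodendrocyte, microglia and endothelial marker levels as covariates, 95 genes were called, 28 of the 40 among them, and 21 were PVwt_CTX high. Leaving out PVwt replicates 3 and 4 of both regions together with PVCre_CTX replicates 2 and 4 gave 153 called genes, 27 of the 40 among them, with 98 PVwt_CTX high. These are the arrays with low Pvalb given above. Only replicates 1 and 2 of each PVwt group and replicates 1 and 3 of PVCre_CTX remained. The arrays left out include the lower PVwt_CTX pair of 13 of the 19 genes, so nothing is read from the higher count. Leaving out PVCre_CTX replicates 2 and 4 alone gave 6 called genes, all among the 40, of which Ndnf, Atp6ap1l, Tnnt1 and Pde11a were PVwt_CTX high.

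The list of neurogliaform and caudal interneuron markers held 17 tested genes. Of these, 8 were called, all with a positive interaction: Vip, Cxcl14, Nr2f2, Adarb2, Reln, Tnfaip8l3, Ndnf and Lamp5. Over all genes tested, 0.147% were called with a positive interaction. Of the 16 fits that left out 1 array, Vip was called in 1, Tnfaip8l3 in 2, Nr2f2 in 4 and Lamp5 in 10. Cxcl14, Adarb2, Reln and Ndnf were called in all 16. The genes of this list were chosen with earlier results of these data known. All 17 had a positive estimate, against 45.9% of all genes tested. The median was 3.92 against -0.03 over all genes tested. The median region effect of the list was -3.44 in PVwt and -0.03 in PVCre. The mean level of the list was 9.7 to 12.2 in PVwt_CTX, 7.6 to 8.0 in PVwt_ST, 7.0 to 7.1 in PVCre_ST and 6.5 to 6.8 in PVCre_CTX. On this mean the PVwt_CTX arrays overlapped none of the others. Since the list was chosen with earlier results of these data known, nothing is read from that.

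Members that were not called had wide spreads or another arrangement. Cnr1, the CB1 cannabinoid receptor of Cck cells, lay just outside the threshold with an interaction of 4.96 ± 0.94 (SE, limma adjusted p = 0.051), beside Vip, Ptprg and Gm12451 just inside it at 0.049. Its group means were 9.97 in PVwt_ST, 11.42 in PVwt_CTX, 9.54 in PVCre_ST and 6.03 in PVCre_CTX, so it was the PVCre_CTX group that stood apart. Crh, a stress peptide gene, had an interaction of 4.52 ± 1.08 (limma adjusted p = 0.17), and the serotonin receptor gene Htr3a 4.08 ± 1.11 (0.24). For Htr3a, PVwt_CTX measured 14.17, 13.84, 9.97 and 10.74, and replicates 3 and 4 were close to PVwt_ST replicates 1 and 2 at 9.89 and 9.36. Id2, Sncg and Calb2 had no PVwt_CTX group apart. Calb2, the calretinin gene, had means of 9.97 in PVwt_ST and 10.84 in PVwt_CTX against 5.39 and 5.43 in PVCre, a difference between lines in both regions and an interaction of 0.83 ± 0.89.

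**Figure D3:**
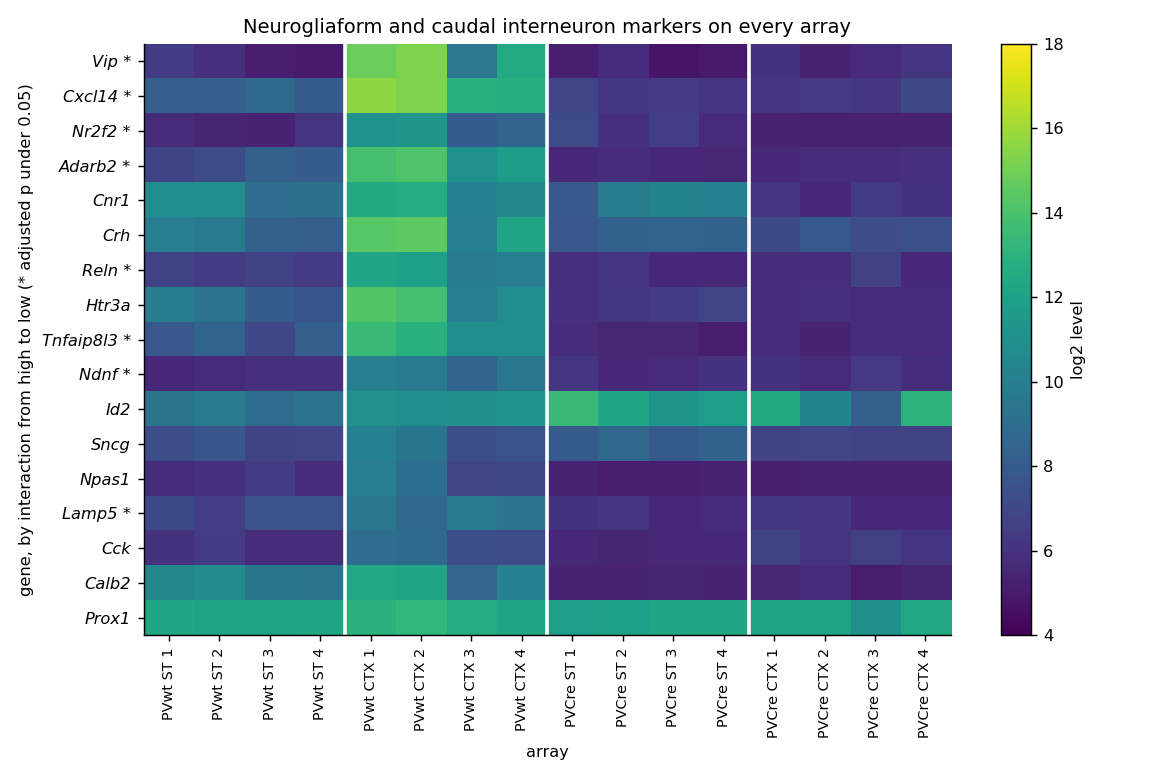
Log2 level of the 17 neurogliaform and caudal interneuron markers (rows, by interaction) on each of the 16 arrays (columns); a star marks the 8 called genes. The PVwt_CTX columns are bright for most rows, replicates 1 and 2 more than 3 and 4, Cnr1 and Calb2 are also bright in PVwt_ST, and Id2 and Prox1 in all groups.

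The 7 PVwt_ST high genes had a negative interaction. Trh, the precursor of thyrotropin-releasing hormone, measured 11.85, 12.15, 9.0 and 9.33 in PVwt_ST. On the other 12 arrays it stood between 4.91 and 6.37, so no array overlapped. As given above, Trh was tested only because PVwt_ST was high. Striatum minus cortex was 5.38 ± 0.58 (SE) in PVwt and 0.37 ± 0.58 in PVCre, an interaction of -5.01 ± 0.82 (limma adjusted p = 0.022). Tacr3, the receptor of neurokinin B, measured 11.18, 11.03, 9.38 and 9.36 in PVwt_ST and 5.97 to 7.05 in PVwt_CTX. In PVCre it was between 4.98 and 5.54 in both regions, which is within background. Its interaction was -4.05 ± 0.54 (limma adjusted p = 0.0064). Mc3r, a melanocortin receptor, measured 9.86, 9.51, 7.61 and 7.74 in PVwt_ST and 5.11 to 5.70 elsewhere.

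Baiap3, a gene of dense-core vesicle traffic, had the smallest p of all genes tested. It measured 8.11, 8.09, 7.66 and 7.62 in PVwt_ST, 6.12 to 6.22 in PVwt_CTX, and 5.72 to 5.89 in PVCre. All arrays of a group lay close together, and the interaction was -1.69 ± 0.16 (SE, limma adjusted p = 0.001). Gfra2, the co-receptor of the neurotrophic factor neurturin, had means of 10.27 in PVwt_ST, 8.11 in PVwt_CTX, 6.53 in PVCre_ST and 7.36 in PVCre_CTX. It was the only called gene of 11 tested on the list of neurotrophic factors and receptors. Crym, a thyroid hormone binding protein, was also higher in striatum in PVCre (7.32 against 6.53), but less so than in PVwt (9.30 against 6.59). AW551984 had an interaction of -1.58 ± 0.29. In 6 of the 7 genes PVwt_ST replicates 1 and 2 were both above replicates 3 and 4, with Crym the exception. Trh was called in 9 of the 16 fits that left out 1 array, and Baiap3, Tacr3 and Crym in all 16. Mc3r was called in 7 of them, Gfra2 in 4 and AW551984 in 2.

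Trh was the only called member of 12 tested on the list of striatal interneuron markers, whose median interaction was -0.50. Of the 12 estimates 1 was positive, against 45.9% over all genes tested. Th, the rate-limiting enzyme of dopamine synthesis, measured 14.10, 14.14, 11.09 and 11.06 in PVwt_ST. It was 6.46 to 9.02 in PVwt_CTX, 7.61 to 8.11 in PVCre_ST and 6.58 to 7.02 in PVCre_CTX. Th was highest on the PVwt_ST arrays with no overlap, yet its interaction of -3.85 ± 0.99 (SE) was not called (limma adjusted p = 0.21). Lhx8, a transcription factor of striatal cholinergic cells, had an interaction of -2.92 ± 0.68 (limma adjusted p = 0.16). In contrast, Gpr83 had region effects of 6.08 in PVwt and 6.00 in PVCre, and Il1rapl2 4.75 and 4.69. Their interactions were -0.08 ± 1.72 and -0.07 ± 1.03, so errors of this size leave a wide range of values possible.

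The 6 PVCre_CTX low genes had a positive interaction. Necab1, a neuronal calcium-binding protein gene, measured 8.90, 7.10, 8.46 and 7.96 in PVCre_CTX. It was 12.25 to 14.39 in PVCre_ST, 11.66 to 14.56 in PVwt_ST and 12.27 to 14.75 in PVwt_CTX. The region effect was 5.54 ± 0.75 (SE) in PVCre and -0.36 ± 0.75 in PVwt, and the interaction was 5.91 ± 1.07 (limma adjusted p = 0.043). Clu, the gene for the secreted chaperone clusterin, measured 8.55, 7.88, 9.08 and 8.89 in PVCre_CTX against 10.76 to 12.29 on the other arrays. Its interaction was 2.08 ± 0.32 (limma adjusted p = 0.016), and it was the only 1 of the 6 called in all 16 fits that left out 1 array. Gsta4, a glutathione transferase gene, measured 7.34, 7.23, 7.02 and 7.39 in PVCre_CTX and 9.92 to 10.64 in PVCre_ST. The PVwt arrays, at 8.39 to 10.45, lay above PVCre_CTX and partly overlapped PVCre_ST.

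Ptprg, a receptor tyrosine phosphatase gene, had means of 6.90 in PVCre_CTX, 8.70 in PVCre_ST, and 10.07 and 10.40 in PVwt_ST and PVwt_CTX. Nfib, a transcription factor of neural development, had means of 9.28, 11.03, 11.26 and 11.49 in the same order. Ano6, a lipid scramblase gene, had means of 6.02, 7.41, 7.74 and 7.5. Within PVCre_CTX, Necab1 was lowest on replicates 2 and 4, Clu on replicate 2 and Gsta4 on replicate 3. All 4 replicates lay under every other array in each of the 6 genes. The call and the sorting use the same values, so nothing is read from this. Whether the low Pvalb of replicates 2 and 4 bears on these genes was not tested. Gad1 and Gad2 also had PVCre_CTX as the low group, but their replicate 3 overlapped other groups. Without PVCre_CTX replicates 2 and 4, Clu was the only PVCre_CTX low gene called.

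**Figure D4:**
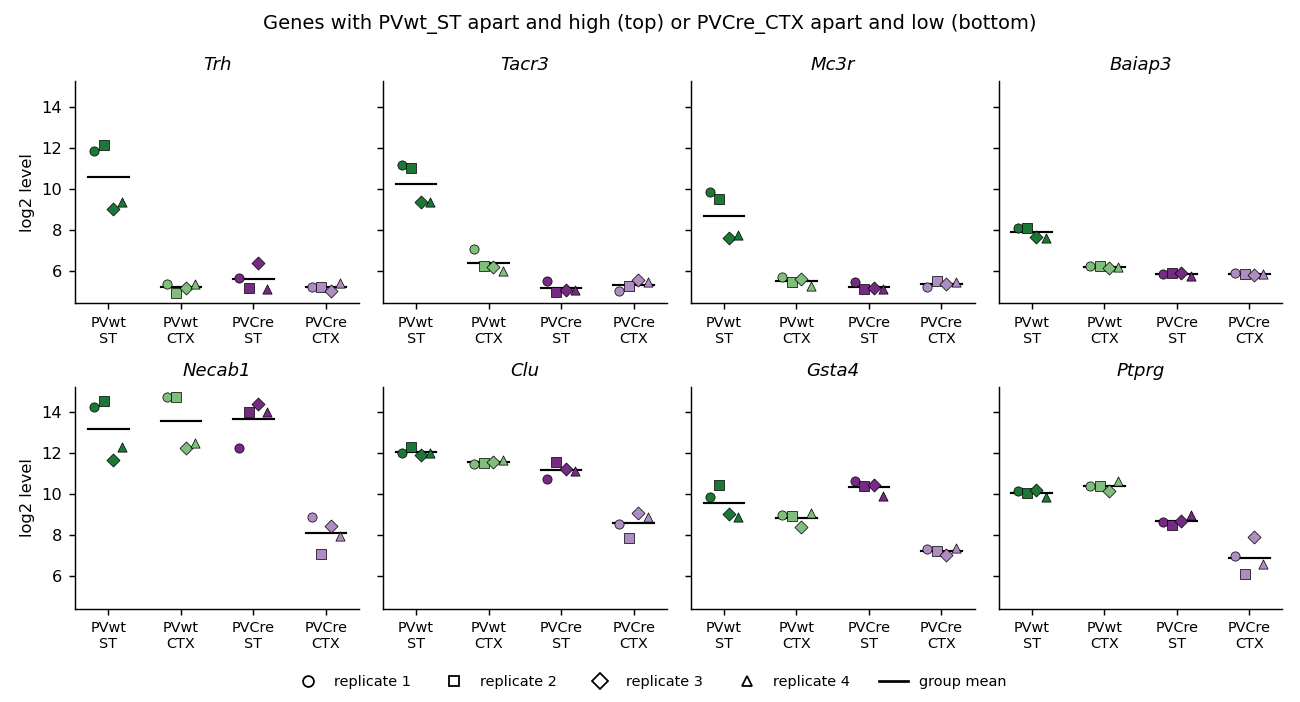
Log2 level on each array for 4 PVwt_ST high genes (top) and 4 PVCre_CTX low genes (bottom), by group. Symbols mark the replicates and bars the group means. Trh, Tacr3, Mc3r and Baiap3 are above all other arrays in PVwt_ST, and Necab1, Clu, Gsta4 and Ptprg are below all other arrays in PVCre_CTX.

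Cemip2, which encodes a cell-surface hyaluronan-degrading protein, was the only called gene with PVCre_ST apart and low. It measured 7.86, 8.16, 7.56 and 7.96 in PVCre_ST, 9.36 to 10.21 in PVCre_CTX and 9.74 to 11.25 in PVwt. The interaction was -2.33 ± 0.40 (SE, limma adjusted p = 0.031), and the call held in 6 of the 16 fits that left out 1 array. In the same group the oligodendrocyte precursor gene Gpr17 also stood apart and low without a call, with an interaction of -1.83 ± 1.04 (limma adjusted p = 0.82).

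In 7 called genes no single group stood apart. Fgfr1, a fibroblast growth factor receptor, had means of 8.99 in PVwt_ST and 9.39 in PVwt_CTX against 7.96 in PVCre_ST and 6.96 in PVCre_CTX. Its interaction was 1.39 ± 0.18 (SE, limma adjusted p = 0.0064). Cd55, which restrains complement, was higher in striatum by 0.53 ± 0.19 in PVwt and by 2.29 ± 0.19 in PVCre. 1700028P14Rik was higher in striatum in both lines, by 2.17 ± 0.30 in PVwt and 5.02 ± 0.30 in PVCre, an interaction of 2.85 ± 0.43 (limma adjusted p = 0.016). Tbc1d22b had means of 10.42 and 10.27 in PVwt and 8.35 and 9.33 in PVCre_ST and PVCre_CTX.

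In 6 called genes the regions crossed, with all striatal arrays above all cortical ones in 1 line and all below in the other. Over all genes tested, 22 crossed. Plppr1, a phospholipid phosphatase-related gene of neurite growth, measured 9.04 to 9.26 in PVwt_ST and 9.48 to 10.78 in PVwt_CTX. The PVCre arrays stood at 6.85 to 7.49 for striatum and 5.74 to 6.19 for cortex. Its interaction was 2.30 ± 0.33 (SE, limma adjusted p = 0.012). Grik3, a kainate receptor subunit gene, ran the other way, with 9.60 to 9.83 in PVwt_ST and 8.80 to 9.06 in PVwt_CTX. The PVCre arrays stood at 5.78 to 6.60 for striatum and 6.71 to 7.69 for cortex. Grik3 was the only called gene of 23 tested on the list of glutamate and GABA-A receptors. The other crossing genes were Gm12451, Ddr2, Nr2f2 and Gfra2.

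Of 27 gene lists, 5 held a called gene and 22 held none. Besides the lists above, these were the interneuron and regional transcription factors, with 1 of 21 tested genes called (Nr2f2). That call held in 4 of the 16 fits that left out 1 array. The list of Sst, Npy and Nos1 interneurons had 0 of 10 called and a median interaction of 1.05. Npy, a neuropeptide gene, measured 17.37, 16.76, 17.43 and 17.06 in PVwt_CTX, above all other arrays. Its other groups ranged from 7.59 to 14.52, and its interaction was 3.49 ± 1.84 (SE, limma adjusted p = 0.79). Sst, another neuropeptide gene, had PVCre_CTX apart and low at 6.66 to 8.38, with an interaction of 2.03 ± 1.58 (limma adjusted p = 0.91).

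The endothelial list had the second highest median, 1.25, with 15 of 15 estimates positive (45.9% over all genes tested) and 0 called. In 13 of the 15 genes PVCre_ST was the group apart and high, against 3.06% of all genes tested. The mean level of the list was 7.2 to 9.2 in PVCre_ST against 5.8 to 6.9 in the other groups. Flt1, a receptor of vascular growth factors, measured 9.81, 7.70, 7.34 and 7.70 in PVCre_ST, where replicate 1 was the highest, and 5.57 to 6.78 elsewhere. Its interaction was 2.26 ± 0.60 (SE, limma adjusted p = 0.22). Pericyte and fibroblast markers had a median of 0.57 and 0 of 10 called. Car4 is also made by endothelial cells, and its high PVCre_ST value was on that same replicate 1. Whether vascular RNA contributed to the PVCre_ST level of Car4 was not tested.

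The list of motile cilia and ependyma had 0 of 19 genes called and a median interaction of 0.58, although its region effects were large in both lines, with medians of 2.63 in PVwt and 3.05 in PVCre. Tmem212, of this list, measured 10.86 to 12.47 in PVwt_ST and 13.99 to 15.63 in PVCre_ST, against 5.59 to 6.73 in cortex. Its interaction of 2.75 ± 0.54 (SE) lay outside the threshold (limma adjusted p = 0.069). All 18 cholesterol synthesis genes had a negative estimate, with a median of -0.62 and 0 called. Over all genes tested, 45.9% of estimates were positive. Pmvk, a kinase of that pathway, had the smallest p of them, with -1.27 ± 0.31 (limma adjusted p = 0.18). The microglia list had a median of -0.18 and 0 of 20 called, while its mean level was 5.4 to 5.8 in PVwt and 7.1 to 9.5 in PVCre, a line difference shared by the regions. The list of parvalbumin interneuron markers had a median of 0.50 and 0 of 20 called.

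**Figure D5:**
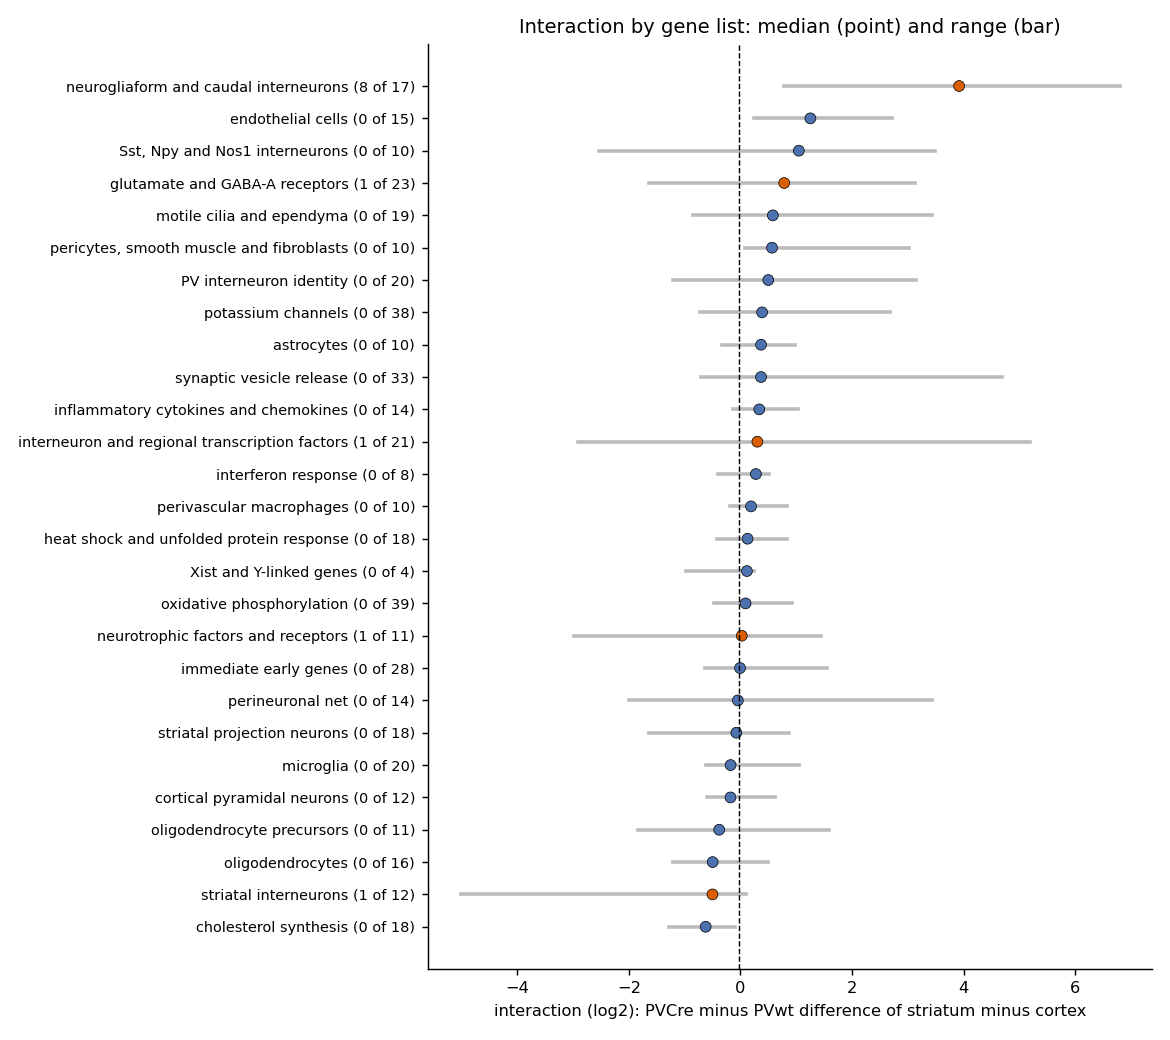
Interaction by gene list on a log2 axis. Points are the median over the list's tested genes, bars run from the lowest to the highest gene, and the numbers beside each name give called of tested genes. Orange points mark the 5 lists with a called gene, and the dashed line is the median of all genes tested, -0.03. The neurogliaform and caudal list lies to the right of the others at 3.92.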

How the data were processed

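The authors deposited log2 values; the submitters' processing notes name RMA and Affymetrix Expression Console, whose version is not given in the sources used here. RMA corrects background, normalizes and summarises probes. Arrays give no read depth, so their number limits the precision. A cluster had a single gene where the platform annotation gave 1 gene; 1670 clusters with several genes and 33206 with none were left out. For 357 genes with several clusters the one with the highest mean was used. Genes under a mean of 5.525 were not tested.

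For the interaction, lmFit and eBayes of limma 3.58.1 (R 4.3.3; statmod 1.5.0 for the random block) were fitted with 1 mean for each group, with Benjamini-Hochberg adjustment and a threshold of 0.05. Errors are standard errors (SE). Genes were named by rule: per group apart the 4 largest interactions without overlap, up to 3 crossing genes, the 3 largest with no group apart, and per list the called members up to 4, or the 2 with the smallest p; other called genes and Calb2, Cnr1, Crh, Gpr83, Htr3a, Id2, Il1rapl2, Lhx8 and Sncg were named after their values were seen. Members and lists were chosen with earlier results of these data known. Alternatives changed the filter, clusters, normalization, prior, weights, blocks, covariates, minimum difference, sorting and arrays. Same-numbered arrays of the 2 regions, after group means were removed, correlated at 0.58 to 0.76 in PVwt and -0.29 to 0.69 in PVCre. The numbers were therefore not taken as pairs over both lines. Xist, however, followed the title numbers in both lines. In PVwt it was high only on replicate 3, at 15.93 in striatum and 16.01 in cortex. In PVCre it was low only on replicate 2, at 5.90 in striatum and 6.56 in cortex. Whether same-numbered arrays shared mice was not tested. In PVCre_CTX the sample descriptions number the replicates otherwise than the titles do. The correlations and the fixed blocks used the title numbers, and the random block the description numbers. The labels do not say whether the 2 regions came from the same mice. A block in PVwt alone was added after the data were seen. The test was checked on simulated data with independent normal noise and, for each gene, equal spread in all groups. The real arrays shared deviations, so that check cannot give the rate of false calls in these data.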

Additional observations from a re-analysis of the deposited data

Results flagged for a closer look

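The 40 interactions called by limma mark region effects that differed between the lines (log2 scale). With PVwt_CTX apart and high they were Vip 6.80, Cxcl14 5.79, Nr2f2 5.18, Adarb2 4.96, Sema3c 4.86, Reln 4.20, Rxfp1 4.09, Tnfaip8l3 3.92, Ndnf 3.56, Car4 3.54, Pde11a 3.25, Slc17a8 2.68, Atp6ap1l 2.51, Bmp3 2.11, Lamp5 2.06, Ccn3 1.94, Tnnt1 1.48, Ddr2 1.27 and Thbs2 1.04. With PVwt_ST apart and high they were Trh -5.01, Tacr3 -4.05, Mc3r -3.33, Gfra2 -2.99, Crym -1.93, Baiap3 -1.69 and AW551984 -1.58. With PVCre_CTX apart and low they were Necab1 5.91, Gsta4 2.38, Ptprg 2.13, Clu 2.08, Nfib 1.98 and Ano6 1.15, and with PVCre_ST apart and low Cemip2 -2.33. With no single group apart they were 1700028P14Rik 2.85, Gm12451 2.75, Plppr1 2.30, Cd55 1.76, Grik3 -1.63, Fgfr1 1.39 and Tbc1d22b -1.12.

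A set was flagged where 1 array lay far from the other 3 of its group relative to the spread within that group. Of 360 sets of 1 named gene and 1 group, 28 were flagged (7.78%), where chance gives about 1 in 20. Replicate 1 of PVCre_ST accounted for 8 of these. High there were the vascular genes Flt1 at 9.81, Rgs5 at 11.28 and Vtn at 11.67. So were the inflammatory gene Cxcl2 at 11.06, the interferon response gene Ifit1 at 7.43, Ccn3 at 5.17 and Tacr3 at 5.50. Kcnd2 was low there at 11.31. Xist was high on replicate 3 of PVwt_ST (15.93) and PVwt_CTX (16.01) and low on replicate 2 of PVCre_ST (5.90) and PVCre_CTX (6.56). The Y-linked genes were low on PVwt replicate 3, with Kdm5d at 5.90 in striatum and 5.78 in cortex, Uty at 6.15 in both, and Eif2s3y at 5.75 in striatum. In PVCre_ST replicate 2, Sox9 was high at 8.92 and Ppp1r1b at 7.87. In PVCre_CTX replicate 3, Hapln1 was high at 8.15 and Kcnn2 at 7.72, and Rorb was low at 6.64 and Cd55 at 6.07. The remaining values in PVCre_CTX were Tbc1d22b at 9.63 on replicate 2 and Flt1 at 6.15 on replicate 4. In PVwt_ST they were Fdps at 13.01 and Hsp90b1 at 16.11 on replicate 4, and F13a1 at 5.27 on replicate 1. Some flagged gaps were small: the nearest array was at 6.09 for Flt1 in PVCre_CTX and at 5.12 for F13a1 in PVwt_ST. In PVwt the flags of Xist and the Y-linked genes all fell on replicate 3, so they are not separate events. Nothing is therefore read from the percentage of flagged sets being above chance.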

How the results depend on the processing

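No called gene changed the sign of its interaction under any alternative, and the number of calls varied. The cause of each change in count was not tested. Calls numbered 29 with no filter (3 PVCre_CTX low), 35 with a stricter filter that kept 15313 genes, 41 with every cluster, 33 after centring on array medians, 39 with a trended robust prior (1 PVCre_ST high) and 55 with control separation as a covariate (11 PVCre_CTX low, 2 PVCre_ST low, 2 PVCre_ST high, 13 with no group). Quantile normalization gave 58, of which 48 were positive, with 5 PVCre_ST high, 2 PVCre_ST low and 19 with no group. Array weights gave 131 (75 positive, 56 negative), sorted as 32 PVwt_CTX high, 26 PVwt_ST high, 11 PVCre_CTX low, 8 PVCre_ST low, 9 PVCre_ST high, 2 PVCre_CTX high, 1 PVwt_CTX low, 2 PVwt_ST low and 40 with no group. A replicate block of 8 pairs by line and number gave 127 (70 positive, 57 negative; 38 of the 40 kept), with 33 PVwt_CTX high, 19 PVCre_CTX low, 27 PVCre_ST low, 1 PVCre_ST high, 5 PVCre_CTX high, 1 PVwt_ST low and 32 with no group. A replicate block by number alone gave 29 (6 negative, 2 PVCre_CTX low, 0 PVCre_ST low). A replicate block of the 4 PVwt pairs alone, added after the data were seen, gave 111 (70 positive, 41 negative; 38 PVwt_CTX high, 16 PVwt_ST high, 13 PVCre_CTX low, 16 PVCre_ST low, 1 PVCre_ST high, 3 PVCre_CTX high, 2 PVwt_ST low, 22 with no group). In the check of pairing by number, same-numbered arrays correlated at 0.58 to 0.76 in PVwt and -0.29 to 0.69 in PVCre, and the best match was the own number in 2 of 4 in each line. A random block by line and description number gave 103 (69 positive, 34 negative). These were 30 PVwt_CTX high, 13 PVwt_ST high, 12 PVCre_CTX low, 6 PVCre_ST low, 6 PVCre_ST high, 5 PVCre_CTX high, 2 PVwt_ST low and 29 with no group. Against a minimum difference of 1, limma's treat called 0 genes, with 130 at an unadjusted p under 0.05. Marker covariates gave 95 (72 positive, 23 negative; 28 PVCre_CTX low, 16 PVwt_ST high, 2 PVCre_ST low, 1 PVCre_ST high, 1 PVwt_ST low, 26 with no group). Xist and Y-linked covariates gave 19 (16 positive, 3 negative; 10 PVwt_CTX high, 3 PVwt_ST high, 2 PVCre_CTX low, 0 PVCre_ST low, 4 with no group). Leaving out PVCre_CTX replicates 2 and 4 gave 6 (5 positive, 1 negative; 4 PVwt_CTX high, 1 PVwt_ST high, 1 PVCre_CTX low, 0 PVCre_ST low, 0 with no group). Leaving out 6 arrays gave 153 (122 positive, 31 negative; 98 PVwt_CTX high, 21 PVwt_ST high, 2 PVCre_CTX low, 3 PVCre_ST low, 1 PVwt_CTX low, 2 PVwt_ST low, 26 with no group). Sorting with a gap over 2 times the range left 16 with no group and 0 PVCre_ST low; sorting by tests gave 4 with no group, 3 PVCre_ST low and 1 PVCre_ST high. Without single arrays, calls ranged from 21 to 69, positive calls from 17 to 55, negative from 3 to 14, PVwt_CTX high from 10 to 34, PVwt_ST high from 3 to 8, PVCre_CTX low from 1 to 9, PVCre_ST low from 0 to 2, PVCre_ST high from 0 to 3, PVCre_CTX high from 0 to 1 and no group from 4 to 16. Estimates of genes that were not called changed sign as follows: Pvalb was -1.23 with array weights, -0.65 without PVCre_CTX replicates 2 and 4 and -0.25 without 6 arrays; Cux2 was 0.024 with array weights and 0.011 with marker covariates; Ifit1 was -0.22 with marker covariates; Uqcrq and Ndufa1 were -0.30 and -0.21 without 6 arrays; Kdm5d was -0.14 and Uty -0.051 with array weights; Eif2s3y and Uty were -0.044 and -0.0068 with the random block and -0.19 and -0.27 with marker covariates. Without single arrays, estimates ranged from -3.51 to 1.53 for Xist, from -0.61 to 1.17 for Kdm5d, from -0.82 to 0.99 for Eif2s3y and from -0.80 to 0.92 for Uty. Depth cannot be judged from arrays; for levels near 6, background limits what a difference can show.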
